A study of Mus musculus with 13 samples.

Results

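Atrial identity genes are genes used as marks of the muscle of the atria, the upper chambers of the heart. Some of them are made in other cells of the heart as well. The 9 described here are Myl7, Myl4, Sln, Bmp10, Nr2f1, Nr2f2, Dkk3, Sbk2 and Sbk3. They were chosen by symbol, and all 9 were found among the 53278 gene symbols counted in each library. The libraries came from hearts of male C57Bl6 wild-type mice that had surgery at 12 weeks of age and were sampled at 17 weeks. Sham hearts (n = 3) had a sham operation and received no injection. IR hearts (n = 3) went through ischaemia and reperfusion, in which the supply of blood to the heart muscle is stopped for a time and then restored, and likewise received no injection. IR virus hearts (n = 3) had the same injury and were given a control virus. IR edit hearts (n = 4) had the injury and were given a functional system for editing CaMKIIδ, a kinase of heart muscle that calcium and calmodulin activate. No Sham heart received a virus, so in the comparison of IR edit with Sham the injury, the injection and the editing system cannot be told apart. Per the labels RNA came from whole hearts, and they do not say how the atria and great vessels were trimmed.

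Atria and ventricles build their contractile apparatus partly from different proteins. Myl7 and Myl4 encode the regulatory and the essential myosin light chain of atrial muscle, in place of the ventricular Myl2 and Myl3, and Sln encodes sarcolipin, a small membrane protein that restrains the calcium pump SERCA. Bmp10 is a secreted ligand made by atrial muscle cells that acts on the endothelium. Nr2f1 and Nr2f2 are the nuclear receptors COUP-TFI and COUP-TFII, and Nr2f2 directs atrial over ventricular identity and also marks veins and lymphatic vessels. Dkk3 is a secreted glycoprotein related to the Dickkopf inhibitors of Wnt signalling, and Sbk2 and Sbk3 are SH3-domain-binding kinases of the atrium.

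The promoters of 3 members are shown because Myl7 and Myl4 had nearly the same pattern over the hearts, whereas Bmp10, another product of atrial muscle, had a different one. The 250 bases before each start site are given in the direction of transcription, from RefSeq on GRCm38.p6, with motif matches in capitals. The regions are chr11:5898783-5899032 on the minus strand for Myl7, chr11:104550413-104550662 on the plus strand for Myl4 and chr6:87428744-87428993 on the plus strand for Bmp10.
Myl7: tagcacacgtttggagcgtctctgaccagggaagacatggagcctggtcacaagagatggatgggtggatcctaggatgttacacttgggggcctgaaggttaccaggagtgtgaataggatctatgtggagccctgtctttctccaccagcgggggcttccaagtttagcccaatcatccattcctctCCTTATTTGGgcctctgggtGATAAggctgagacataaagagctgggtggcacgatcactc
Myl4: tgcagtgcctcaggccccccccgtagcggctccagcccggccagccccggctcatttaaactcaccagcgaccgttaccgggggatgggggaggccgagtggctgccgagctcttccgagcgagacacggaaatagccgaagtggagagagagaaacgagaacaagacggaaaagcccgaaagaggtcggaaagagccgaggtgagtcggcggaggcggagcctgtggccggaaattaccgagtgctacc
Bmp10: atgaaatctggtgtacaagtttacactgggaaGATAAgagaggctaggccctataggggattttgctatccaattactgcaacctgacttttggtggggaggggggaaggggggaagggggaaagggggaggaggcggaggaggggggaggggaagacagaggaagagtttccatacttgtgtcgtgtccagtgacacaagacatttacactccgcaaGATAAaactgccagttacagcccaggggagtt
In the Myl7 promoter the capitals mark a CArG box, the binding motif of serum response factor, at bases -61 to -52 before the start site and the GATA motif GATAA at -41 to -37. In the Bmp10 promoter they mark GATAA at -218 to -214 and at -32 to -28. Both strands were searched for GATAA, for the nuclear receptor half-site AGGTCA, for the T-box motif AGGTGT, for the CArG box and for the MEF2 site, and none of these was found in the Myl4 window. Of 32851 mouse promoter windows of that length, 22.6% held GATAA, the receptor half-site was in 14.0%, the T-box motif in 11.8%, the MEF2 site in 2.92% and the CArG box in 1.47%. Of the 9 members, 7 were in the promoter table, and of the 4 not printed Sbk3 held 1 match to GATAA while Sbk2, Nr2f1 and Nr2f2 held no match. A match is a description of the letters and not a site of binding.

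Each library held between 20634820 and 27265276 gene counts, of which 29.7% to 38.5% came from the mitochondrial genome. The ventricular light chains Myl2 and Myl3 were abundant in every heart, at 2445 to 3751 and 1168 to 1416 CPM per kilobase of exon. CPM are counts scaled to a common library size by the TMM method. Markers of lung epithelium (7 genes) and of thymus (6 genes, 2 of them without a read) had at most 10 reads in any library. Isl1, a marker of the sinus node, had 0 to 2 reads. The calls below come from edgeR's quasi-likelihood test on all 13 libraries, with p-values adjusted by Benjamini-Hochberg over 15690 genes and a threshold of 0.05. The labels number the replicates and do not say which animal each came from, so p-values measure only the spread between these samples, which may be technical. Camk2d, which encodes CaMKIIδ, passed in no comparison (log2 fold change 0.04 in IR edit against IR virus, adjusted p = 0.896).

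All 9 members passed the filter on low counts. The 13 hearts were split in 2 sets at the widest gap in log2 Myl7 that left at least 3 hearts below it. Myl4 and Sln put the same hearts on each side. On the log2 scale the step within the lower set, from Sham replicate 3 (1.56 CPM) to IR edit replicate 4 (3.92 CPM), was wider than this gap. In 4 hearts, Sham replicate 3 and IR edit replicates 1, 3 and 4, Myl7 lay between 1.56 and 8.87 CPM. In the other 9 hearts it lay between 20.2 and 31.7 CPM. The low hearts thus came from 2 of the 4 groups, and each of those groups also held at least 1 heart of the higher set. In bulk tissue, fewer cells of a type and less RNA per cell cannot be told apart, and this holds for every member.

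**Figure D1:**
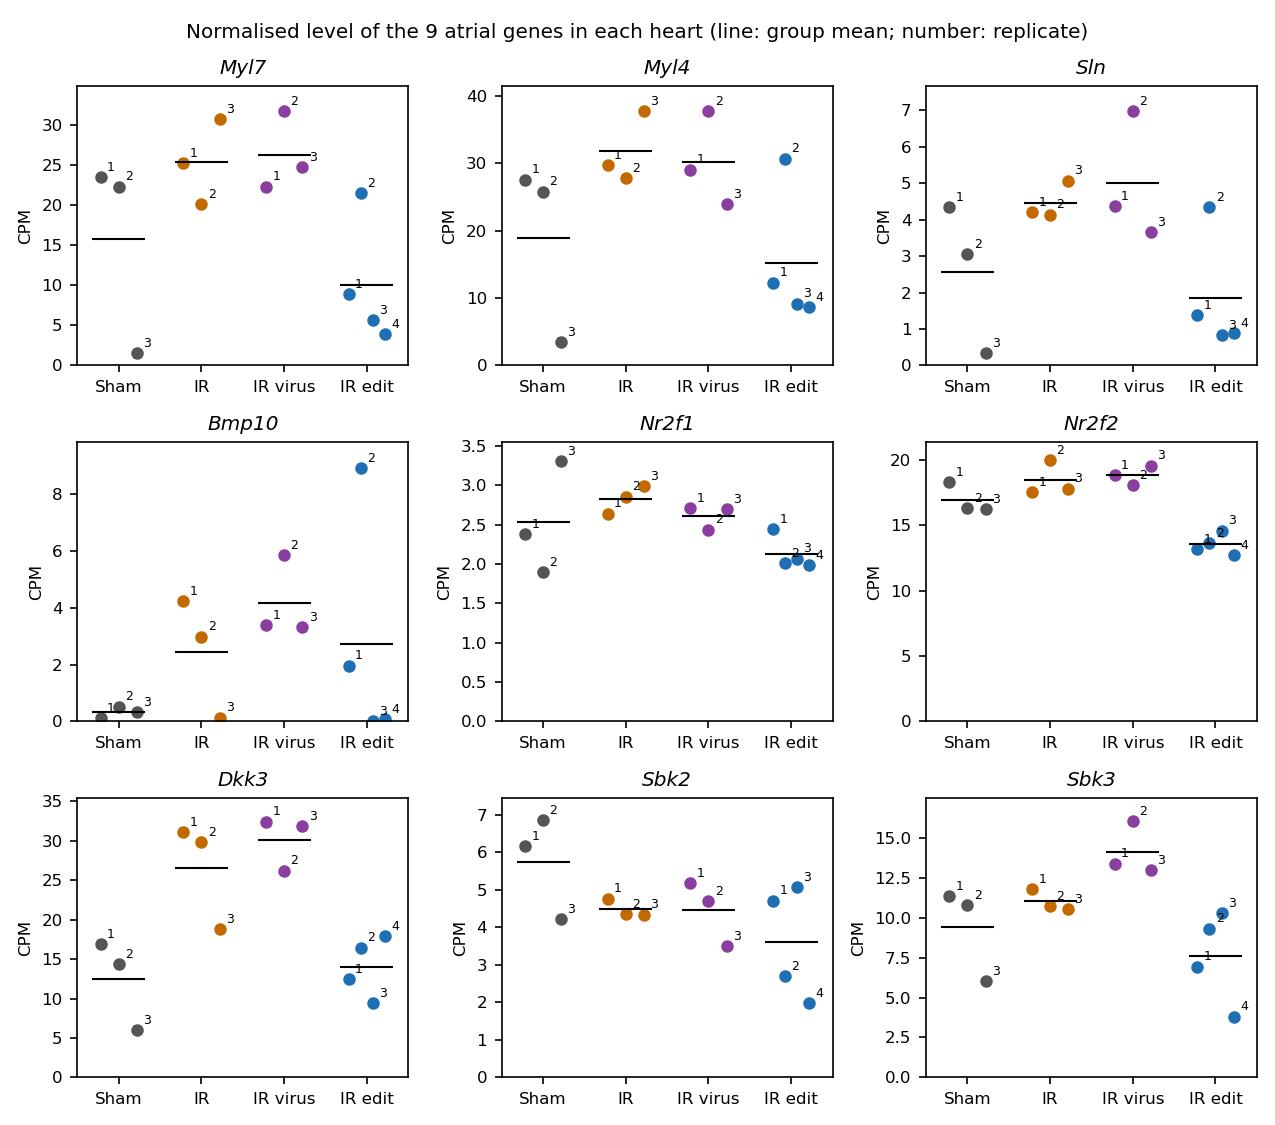
Level of each of the 9 atrial genes in CPM (vertical axis, starting at 0) for every heart, by group; points are hearts numbered by replicate and lines are group means. For Myl7, Myl4 and Sln, Sham replicate 3 and IR edit replicates 1, 3 and 4 sit apart from the other 9 hearts, whereas all 4 IR edit hearts lie below all other hearts for Nr2f2.

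Myl7, the atrial regulatory light chain (chromosome 11, 5896637 to 5898782, minus strand, mm10), was measured at 23.5, 22.3 and 1.56 CPM in Sham replicates 1 to 3. It was at 25.3, 20.2 and 30.8 CPM in IR, 22.3, 31.7 and 24.8 CPM in IR virus, and 8.87, 21.6, 5.69 and 3.92 CPM in IR edit replicates 1 to 4. Sham replicate 3 was the lowest of all hearts, 14.7-fold under the mean of the other Sham hearts, and the IR edit hearts overlapped with Sham and with IR but not with IR virus. The 33 to 755 reads behind these values mean that the lowest level rests on few reads. Ordered by mean, the groups were IR virus (26.3 ± 4.86 CPM, SD, n = 3), IR (25.4 ± 5.30, n = 3), Sham (15.8 ± 12.3, n = 3) and IR edit (10.01 ± 7.96, n = 4). No pair of neighbours in that order passed the test (adjusted p = 0.995, 0.810 and 0.536 by edgeR). The log2 fold change of IR edit against IR virus was -1.39 ± 0.58 (SE, adjusted p = 0.262) and against IR it was -1.34 ± 0.58 (adjusted p = 0.300). Without IR edit replicate 2 these became -2.08 and -2.03 (adjusted p = 0.119 and 0.143). Against Sham it was -0.67 ± 0.59 (adjusted p = 0.536), -1.20 without Sham replicate 3 (0.123) and -1.36 without IR edit replicate 2 (0.220), and it shrank to -0.27 without Sham replicate 1 (0.857).

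Myl4, the atrial essential light chain (chromosome 11, 104550663 to 104595753, plus strand), divided the hearts into the same 2 sets. Its levels were 27.6, 25.8 and 3.41 CPM in Sham, 29.7, 27.8 and 37.8 in IR, 29.1, 37.7 and 24.0 in IR virus, and 12.3, 30.7, 9.16 and 8.66 in IR edit. The same 4 hearts were low, and Sham replicate 3 was 7.84-fold under the mean of the other Sham hearts. Between IR edit and IR virus the groups overlapped, with a log2 fold change of -0.99 ± 0.49 (SE, adjusted p = 0.352), or -1.59 without IR edit replicate 2 (adjusted p = 0.146). Against Sham the log2 fold change of IR edit was -0.33 ± 0.50 (adjusted p = 0.748). With hearts left out it ran from -0.92 without IR edit replicate 2 (adjusted p = 0.314) to 0.045 without Sham replicate 1 (0.974), and without Sham replicate 3 it was -0.81 (0.229).

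Sln, sarcolipin (chromosome 9, 53850164 to 53854560, plus strand), had the lowest level per length of these 3 genes, with a median of 3.14 CPM per kilobase of exon, beside 37.8 for Myl7 and 5.95 for Myl4. Its levels were 4.34, 3.06 and 0.331 CPM in Sham, 4.20, 4.14 and 5.07 in IR, 4.38, 6.97 and 3.66 in IR virus, and 1.37, 4.35, 0.828 and 0.890 in IR edit. The sets of low and high hearts were again the same, and Sham replicate 3 was 11.2-fold under the mean of the other Sham hearts on only 7 reads. The log2 fold change of IR edit against IR virus was -1.43 ± 0.55 (SE, adjusted p = 0.227) and changed to -2.25 (adjusted p = 0.0649) without IR edit replicate 2. Sln reads amounted to between 0.0106% and 0.336% of those of Pln, which encodes phospholamban, its ventricular counterpart, without correction for length.

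The summed level of Myl7, Myl4 and Sln, read as a measure of atrial tissue in each library, was 55.5, 51.2 and 5.30 CPM in Sham. It was 59.2, 52.1 and 73.6 CPM in IR, 55.8, 76.4 and 52.4 in IR virus, and 22.5, 56.6, 15.7 and 13.5 in IR edit. These 3 genes therefore took from 0.000492% to 0.00755% of a library's reads. All IR and IR virus hearts lay above 50 CPM, and 1 IR edit heart lay among them. Whether the low hearts held less atrial tissue at dissection was not tested.

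Within a library, the atrial light chain can be set against its ventricular counterpart on the scale of reads per kilobase of exon. Myl7 amounted to 1.19%, 1.07% and 0.0771% of Myl2 in Sham, 1.32%, 1.18% and 1.75% in IR, 1.32%, 1.603% and 1.34% in IR virus, and 0.478%, 1.25%, 0.257% and 0.272% in IR edit. Of these percentages, the 4 lowest belonged to the 4 hearts named above. The mean log2 ratio of Myl7 to Myl2 counts was -9.48 ± 2.24 (SD) over 3 Sham hearts and -9.51 ± 1.06 over 4 IR edit hearts, beside -7.88 ± 0.294 for the 3 hearts of IR and -7.87 ± 0.155 for the 3 of IR virus. IR edit was lower than IR virus by 1.65 on the log2 scale (difference -1.65, exact two-sided permutation test, p = 0.0571, adjusted over 6 comparisons 0.229). IR edit differed from Sham by -0.03 (exact permutation p = 0.971), by -1.32 without Sham replicate 3, and by 0.65 without Sham replicate 1. The difference of IR from Sham, 1.599 (exact permutation p = 0.2, adjusted 0.3), was 0.31 without Sham replicate 3. The smallest p these exact two-sided tests can give is 0.0571 for 4 against 3 hearts and 0.1 for 3 against 3. IR edit against IR virus, where the ratios of the groups did not overlap, gave that smallest value.

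**Figure D2:**
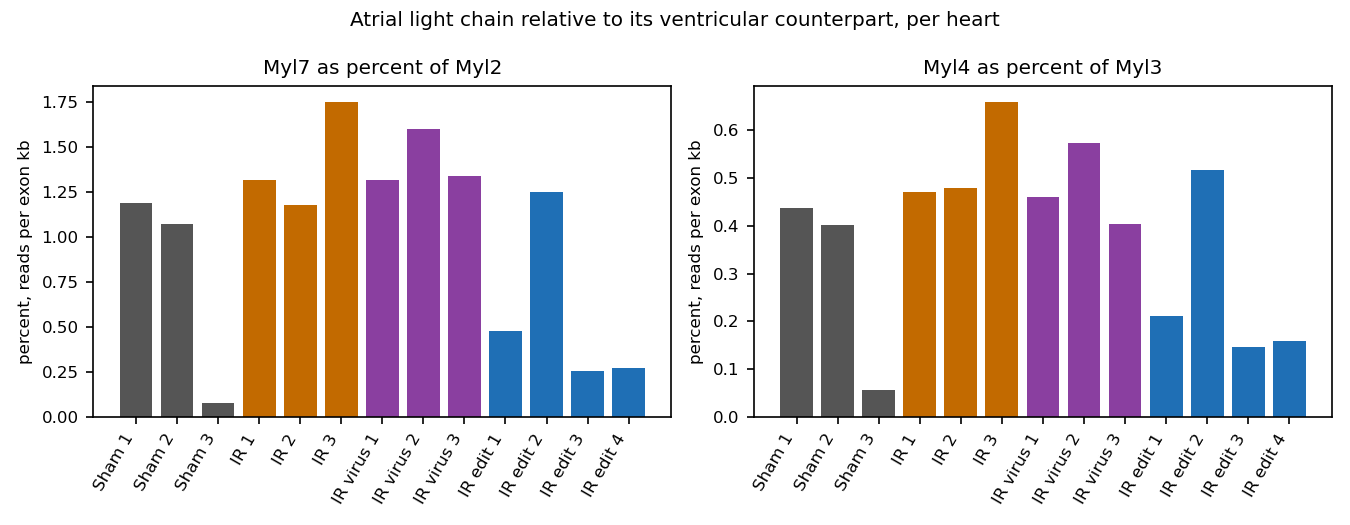
Atrial light chains as a percentage of their ventricular counterparts in each heart, on the scale of reads per kilobase of exon; left Myl7 of Myl2, right Myl4 of Myl3, 1 bar per heart coloured by group and both axes starting at 0. Sham replicate 3 has the lowest bar in both panels (0.0771% for Myl7), followed by IR edit replicates 3, 4 and 1.

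Bmp10, the ligand (chromosome 6, 87428994 to 87437677, plus strand), did not follow the light chains. It was at 0.113, 0.517 and 0.331 CPM in Sham, 4.24, 2.98 and 0.130 in IR, and 3.38, 5.84 and 3.33 in IR virus. The IR edit hearts were at 1.97, 8.92, 0 and 0.0809 CPM, with 53, 199, 0 and 2 reads. The 0 in IR edit replicate 3 allows up to 3 reads, or 0.155 CPM, for counting error only. All 3 Sham hearts were low, also the 2 with a high Myl7 level, and so was IR replicate 3, which had 3 reads of Bmp10 beside 710 of Myl7. IR virus lay wholly above Sham with a log2 fold change of 3.72 ± 1.34 (SE, adjusted p = 0.236), which did not pass, and edgeR's fit of only these groups did call it. For IR against Sham it was 2.95 ± 1.41 (adjusted p = 0.608) and for IR edit against Sham 3.11 ± 1.34 (adjusted p = 0.173), and the latter was 1.24 without IR edit replicate 2. Against IR, IR edit had a log2 fold change of 0.16 ± 0.96 (adjusted p = 0.965), which turned to -1.71 without IR edit replicate 2 and to -0.40 without IR replicate 3.

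Other genes of BMP10 signalling, meaning its receptors, co-receptors, SMAD proteins and targets, were fixed as a list of 22. None of the 21 tested passed edgeR's test in any of the 6 comparisons, with 0 to 4 of them at an unadjusted p under 0.05. Against Sham, 4 of the 21 had in IR edit an unadjusted p under 0.05, and the median log2 fold change was 0.05 beside -0.00 over all genes tested. The smallest p belonged to Smad6, an inhibitory SMAD, at 0.50 ± 0.17 (SE, adjusted p = 0.0904). Smad1, a signal transducer, was at 0.27 ± 0.099 (adjusted p = 0.107) and Smad7, another inhibitor, at 0.40 ± 0.16 (adjusted p = 0.135).

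Nr2f2, which encodes COUP-TFII (chromosome 7, 70351944 to 70366735, minus strand), was the steadiest member, with a ratio of 1.57 between the highest and the lowest heart. Its levels were 18.3, 16.3 and 16.2 CPM in Sham, 17.5, 19.996 and 17.8 in IR, 18.9, 18.1 and 19.6 in IR virus, and 13.2, 13.7, 14.6 and 12.7 in IR edit. All 4 IR edit hearts lay below all 9 others, and Sham replicate 3, lowest for the light chains, lay with the other Sham hearts. IR edit replicate 2, which had high light chains, lay with the other IR edit hearts. Nr2f2 fell in IR edit against IR virus by 0.48 on the log2 scale (-0.48 ± 0.083, SE, adjusted p = 0.00837). It fell against IR by 0.45 (-0.45 ± 0.083, adjusted p = 0.0128) and against Sham by 0.33 (-0.33 ± 0.083, adjusted p = 0.0275). These 3 comparisons share the IR edit libraries.

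The call against IR virus held when any 1 heart of the compared groups was left out (adjusted p between 0.00659 and 0.0468). The call against IR was lost without IR replicate 2 (adjusted p = 0.111). The call against Sham was lost without Sham replicate 1 (0.107) or without IR edit replicate 1 (0.0514), 2 (0.0707) or 4 (0.0875), and in a fit of only the compared groups (0.0943). With the Myl7 level of each heart as a covariate the log2 fold changes were -0.45 against IR virus (adjusted p = 0.0557), -0.42 against IR (0.0624) and -0.32 against Sham (0.0344). Of its exon bases, 643 lie within B130024G19Rik on the other strand, which had 32 to 68 reads beside 282 to 485 of Nr2f2. The strand setting of the counting is not given in the sources used here.

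Nr2f1, which encodes COUP-TFI (chromosome 13, 78188973 to 78199757, minus strand), was about as steady but scarce, with 40 to 70 reads per library. It was at 2.38, 1.89 and 3.31 CPM in Sham, 2.64, 2.86 and 2.99 in IR, 2.71, 2.44 and 2.69 in IR virus, and 2.45, 2.02, 2.07 and 1.98 in IR edit. Sham replicate 3, lowest for Myl7, was here the highest heart, and IR edit lay wholly below IR. The log2 fold change of IR edit against IR was -0.41 ± 0.18 (SE, adjusted p = 0.308), and Nr2f1 passed in no comparison. Of its exon bases, 1638 lie within the antisense gene A830082K12Rik, which had 26 to 35 reads.

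Nr2f2 is also a gene of venous and lymphatic endothelium, and markers of those vessels were measured in the same hearts. Of 10 tested venous and lymphatic markers, 2 rose and none fell in IR edit against Sham, beside 8.01% of all genes that passed. Flt4, a growth factor receptor of lymphatic vessels, rose by 0.44 ± 0.096 (SE, adjusted p = 0.0143). Pdpn, podoplanin, rose by 0.82 ± 0.20 (adjusted p = 0.0223). Between IR edit and IR virus 0 of the 10 passed (edgeR, 2 at an unadjusted p under 0.05), with a median of -0.13. Against IR 1 of the 10 passed, beside 1.42% of all genes. Emcn, endomucin, a sialoprotein of venous and capillary endothelium and of endocardium, fell by 0.36 (-0.36 ± 0.073, adjusted p = 0.0225). Its log2 fold change was -0.09 ± 0.073 against IR virus (adjusted p = 0.600) and -0.23 ± 0.073 against Sham (adjusted p = 0.0630). The summed level of the vessel list was 370 to 404 CPM in Sham, 400 to 417 in IR, 372 to 437 in IR virus and 392 to 429 in IR edit. The part of these cells in the Nr2f2 difference was not tested.

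Among 10 tested genes of the COUP-TF family and of retinoic acid metabolism and signalling, 1 passed in IR edit against Sham. Of all genes, 8.01% passed there. Aldh1a2, which makes retinoic acid, rose by 0.84 ± 0.19 (SE, adjusted p = 0.0159), with 2.55 to 3.02 CPM in Sham and 3.36 to 6.27 CPM in IR edit. Cyp26b1, which degrades retinoic acid, had a log2 fold change of -1.67 ± 0.55 (adjusted p = 0.0735). Between IR edit and IR virus none of the 10 passed (edgeR, 2 at an unadjusted p under 0.05).

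Dkk3, the Dickkopf relative (chromosome 7, 112116017 to 112159057, minus strand), lay highest in the injured groups without editing. Its levels were 16.9, 14.4 and 6.01 CPM in Sham, 31.0, 29.8 and 18.8 in IR, 32.4, 26.2 and 31.8 in IR virus, and 12.4, 16.4, 9.42 and 17.9 in IR edit. Both IR and IR virus lay wholly above Sham, and IR edit lay wholly below both and overlapped with Sham. Ordered by mean, the groups were IR virus (30.1 ± 3.42 CPM, SD, n = 3), IR (26.6 ± 6.77, n = 3), IR edit (14.0 ± 3.85, n = 4) and Sham (12.4 ± 5.71, n = 3). Dkk3 fell in IR edit against IR virus by 1.10 on the log2 scale (-1.10 ± 0.27, SE), at an adjusted p of 0.04999 by edgeR. The call was lost when any 1 of the 7 hearts was left out (adjusted p between 0.0532 and 0.187), with Myl7 as a covariate (-0.71, adjusted p = 0.355), with a robust dispersion (0.140), with a filter of 1 CPM in 3 libraries (0.0516) and with DESeq2's Wald test (0.0536).

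Against IR, the Dkk3 log2 fold change of IR edit was -0.91 ± 0.27 (SE, adjusted p = 0.121). The log2 fold changes against Sham were 1.08 ± 0.30 in IR (adjusted p = 0.304), 1.27 ± 0.30 in IR virus (0.129) and 0.17 ± 0.28 in IR edit (0.773). Sham replicate 3 lay 2.60-fold under the mean of the other Sham hearts here, and without it these became 0.76, 0.94 and -0.15 (adjusted p = 0.391, 0.334 and 0.760). In IR virus against Sham, DESeq2's Wald test did call Dkk3.

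Of 9 genes for Dickkopf proteins and their receptors, 3 beside Dkk3 could be tested. Kremen1, a Dickkopf receptor, rose in IR edit against Sham by 0.52 ± 0.13 (SE, adjusted p = 0.0243). The Wnt co-receptors Lrp5 and Lrp6 had log2 fold changes of 0.36 ± 0.14 (adjusted p = 0.121) and 0.11 ± 0.093 (adjusted p = 0.512). Dkk3 is made by fibroblasts as well. In IR edit against Sham, where 8.01% of all genes passed, 6 of 10 fibroblast markers rose and none fell. Examples are Mfap4, a microfibril protein (2.31 ± 0.51, adjusted p = 0.0144), and Gsn, gelsolin (0.49 ± 0.11, adjusted p = 0.0154). In IR against Sham 0 of the 10 passed, but 9 had an unadjusted p under 0.05 (edgeR), beside 8.33% of all genes, with a median of 0.67. In IR virus against Sham 0 passed and 9 had an unadjusted p under 0.05 (edgeR), beside 15.4% of all genes, with a median of 0.78. Between IR edit and IR virus, where Dkk3 differed, 0 of the 10 passed (edgeR, 0 at an unadjusted p under 0.05), and their median was -0.10. Summed fibroblast markers were at 1614 to 1723 CPM in Sham, 1972 to 2692 in IR, 2206 to 2866 in IR virus and 1842 to 3063 in IR edit. The part of fibroblasts in the Dkk3 levels was not tested.

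Sbk3, a kinase (chromosome 7, 4965260 to 4971168, minus strand), was at 11.4, 10.8 and 6.01 CPM in Sham and 11.8, 10.7 and 10.5 in IR. It was at 13.4, 16.0 and 12.96 CPM in IR virus and 6.94, 9.32, 10.3 and 3.80 in IR edit. The IR virus hearts lay above all others, and IR edit lay wholly below both IR and IR virus. The log2 fold change of IR edit against IR virus was -0.91 ± 0.25 (SE, adjusted p = 0.0845), which did not pass, while it passed without IR edit replicate 3 (adjusted p = 0.0366) and with DESeq2's Wald test. Against IR it was -0.55 ± 0.26 (adjusted p = 0.343), and IR virus against Sham gave 0.58 ± 0.27 (adjusted p = 0.316). In IR against Sham it was 0.22 ± 0.27 (adjusted p = 0.873) and turned to -0.014 without Sham replicate 3.

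Sbk2, its neighbour on chromosome 7 (4940512 to 4964406, minus strand), was the member whose group mean was highest in Sham. It was at 6.16, 6.85 and 4.21 CPM in Sham, 4.76, 4.35 and 4.33 in IR, 5.17, 4.70 and 3.49 in IR virus, and 4.71, 2.69, 5.07 and 1.98 in IR edit. All groups overlapped with Sham, and the low IR edit hearts were replicates 2 and 4, of which replicate 4 was also low for Myl7 and replicate 2 was not. The log2 fold change of IR edit against Sham was -0.68 ± 0.26 (SE, adjusted p = 0.127), and it passed without IR edit replicate 3 (adjusted p = 0.0360). Of its exon bases, 705 lie within Ssc5d on the other strand, which had 70 to 291 reads beside 49 to 163 of Sbk2. Sbk1, the remaining kinase of the family, passed in no comparison.

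Each comparison can also be read over all members. None of the 9 passed in IR against Sham, as did 0.0127% of the 15690 genes by edgeR, and 1 member (Dkk3) had an unadjusted p under 0.05, beside 8.33% of all genes. Their median log2 fold change was 0.67, against 0.00 over all genes. Groups that did not overlap were seen for 2 members, both higher in IR (Myl4 and Dkk3), where 7.94% of all genes were higher without overlap. Without Sham replicate 3, Myl7, Myl4 and Sln were at 0.14, 0.25 and 0.26. None passed in IR virus against Sham either, as did 0.0127% of all genes by edgeR, and 3 members (Bmp10, Dkk3 and Sbk3) had an unadjusted p under 0.05, beside 15.4% of all genes. The members' median was 0.67 against 0.01. The same 3 members were higher without overlap, beside 11.0% of all genes. Without Sham replicate 3, Myl7, Myl4 and Sln were at 0.19, 0.18 and 0.43. Both comparisons use the same Sham hearts.

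The editing group was compared with each of the others. Against Sham 1 of 9 members passed, Nr2f2, beside 8.01% of all genes in either direction and 3.40% that fell. An unadjusted p under 0.05 was reached by 3 members (Bmp10, Nr2f2 and Sbk2), beside 23.6% of all genes. The members' median was -0.33 against -0.00, and 1 member, Nr2f2, was lower without overlap, beside 8.18% of all genes.

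Against IR virus 2 of 9 passed, Nr2f2 and Dkk3, beside 2.02% of all genes in either direction and 1.06% that fell. All 9 members had a negative log2 fold change, with a median of -0.91 against -0.01. An unadjusted p under 0.05 was reached by 5 members (Myl7, Sln, Nr2f2, Dkk3 and Sbk3), beside 15.2% of all genes. The groups did not overlap for 4 members (Myl7, Nr2f2, Dkk3 and Sbk3), all lower in IR edit, beside 7.07% of all genes. With Myl7 as a covariate, which takes Myl7 itself out of the test, none of the other 8 passed, and Myl4 and Bmp10 turned to 0.13 and 0.93.

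Against IR 1 of 9 passed, Nr2f2, beside 1.42% of all genes and 0.637% that fell. The median was -0.55 against -0.00, and 4 members (Nr2f1, Nr2f2, Dkk3 and Sbk3) were lower without overlap, beside 6.85% of all genes. All members but Bmp10 and Sbk2 had an unadjusted p under 0.05, 7 of 9, beside 14.5% of all genes. Between IR virus and IR none of the 9 passed by edgeR, as did 0% of all genes, and 0 members had an unadjusted p under 0.05, beside 3.84% of all genes (603 genes). The members' log2 fold changes of IR virus against IR ran from -0.11 to 0.77, and Sbk3 was higher without overlap, beside 5.86% of all genes.

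**Figure D3:**
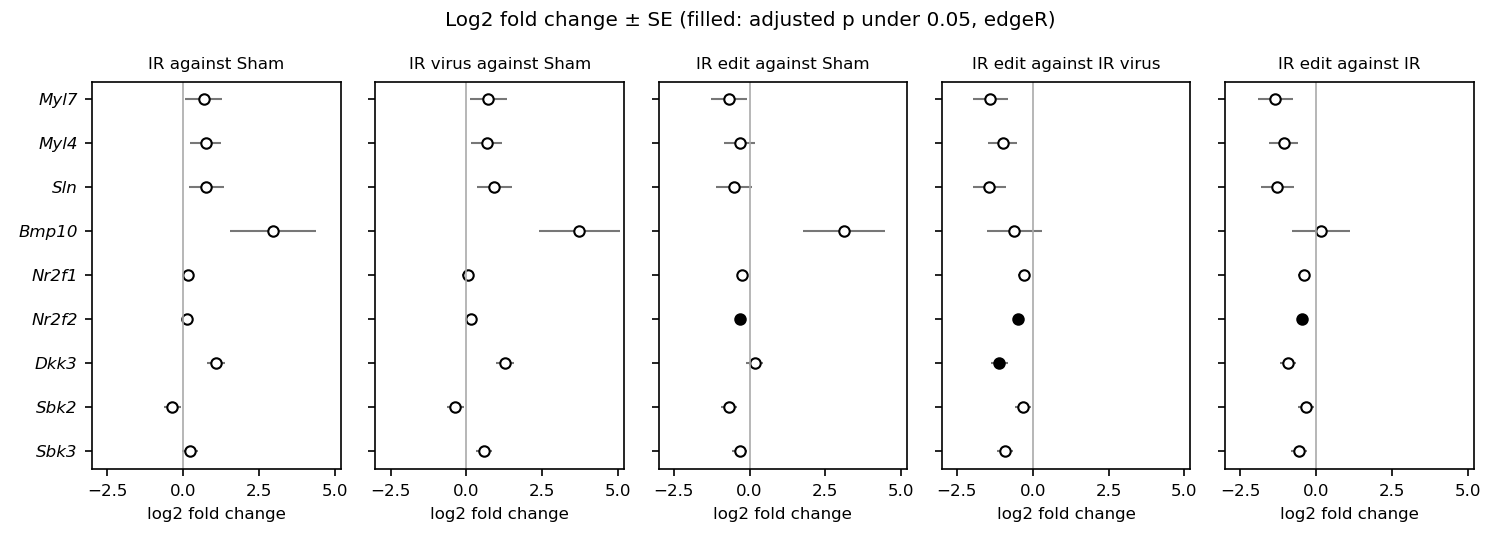
Log2 fold change of each of the 9 atrial genes (horizontal axis) with its standard error as a bar, in 5 comparisons; filled circles passed edgeR's test at an adjusted p of 0.05. Nr2f2 passed in the 3 comparisons of IR edit and Dkk3 in that against IR virus, while Bmp10 has the widest bars.

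Likeness to Myl7 over the 13 hearts separated the members. Pearson's r of log2 CPM was computed for the 13112 genes with a mean of at least 1 CPM, as a description, because all genes share the same libraries. Myl4 ranked first (r = 0.989), Sln came next (0.981), and Mybphl, a myosin-binding protein of the atrium that is no member, ranked 3 (0.979). Mybphl was at 2.34, 1.85 and 0.189 CPM in Sham and 0.927, 2.87, 0.518 and 0.485 CPM in IR edit, so the same hearts were low. The next genes outside the members were Cacna2d2, a calcium channel subunit (0.925), Fgf12, a modulator of sodium channels (0.925), Lmntd1 (0.922) and Dok2, an adaptor protein (0.893). Sbk3 ranked 21 (r = 0.796), Dkk3 32 (0.768), Nr2f2 586 (0.556), Bmp10 966 (0.494), Sbk2 2862 (0.314) and Nr2f1 7680 (-0.05). With the group means subtracted, Myl4 (0.986), Mybphl (0.978), Sln (0.970), Lmntd1 (0.942), Fgf12 (0.920), Reep6 (0.914) and AC136376.2 (0.901) were nearest to Myl7.

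The ratio of reads to those of Myl7 showed the same division. Sln had 0.137 to 0.227 reads and Mybphl 0.0830 to 0.150 reads per Myl7 read over all hearts, although Myl7 itself varied 20.3-fold. Myl4 had 0.968 to 2.21 reads per Myl7 read, and its highest ratios, 2.18 and 2.21, were in Sham replicate 3 and IR edit replicate 4, the hearts lowest in Myl7. For Nr2f2 the ratio ran from 0.570 to 10.4 and for Nr2f1 from 0.0768 to 2.12, with Sham replicate 3 highest for each. Bmp10 ran from 0 to 0.414.

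The hearts fall into 2 sets by Myl7, so no correlation over all of them is read as a test. Within the 9 hearts of the higher set, r with Myl7 was 0.73 for Myl4 (exact permutation p = 0.0267, adjusted over 8 relations 0.118, rho = 0.43, exact p for rho 0.250). For Sln it was 0.70 (exact permutation p = 0.0294, adjusted 0.118, rho = 0.52, exact p for rho 0.162). Without the 2 hearts farthest from the median Myl7 level, r became -0.26 for Myl4 and -0.07 for Sln, so both relations rest on those hearts. Of the other members, Sbk3 had r = 0.51 (exact permutation p = 0.163, adjusted 0.433) and the remaining 5 had r between -0.18 and 0.31. The lower set, with 4 hearts, was too small for a correlation.

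**Figure D4:**
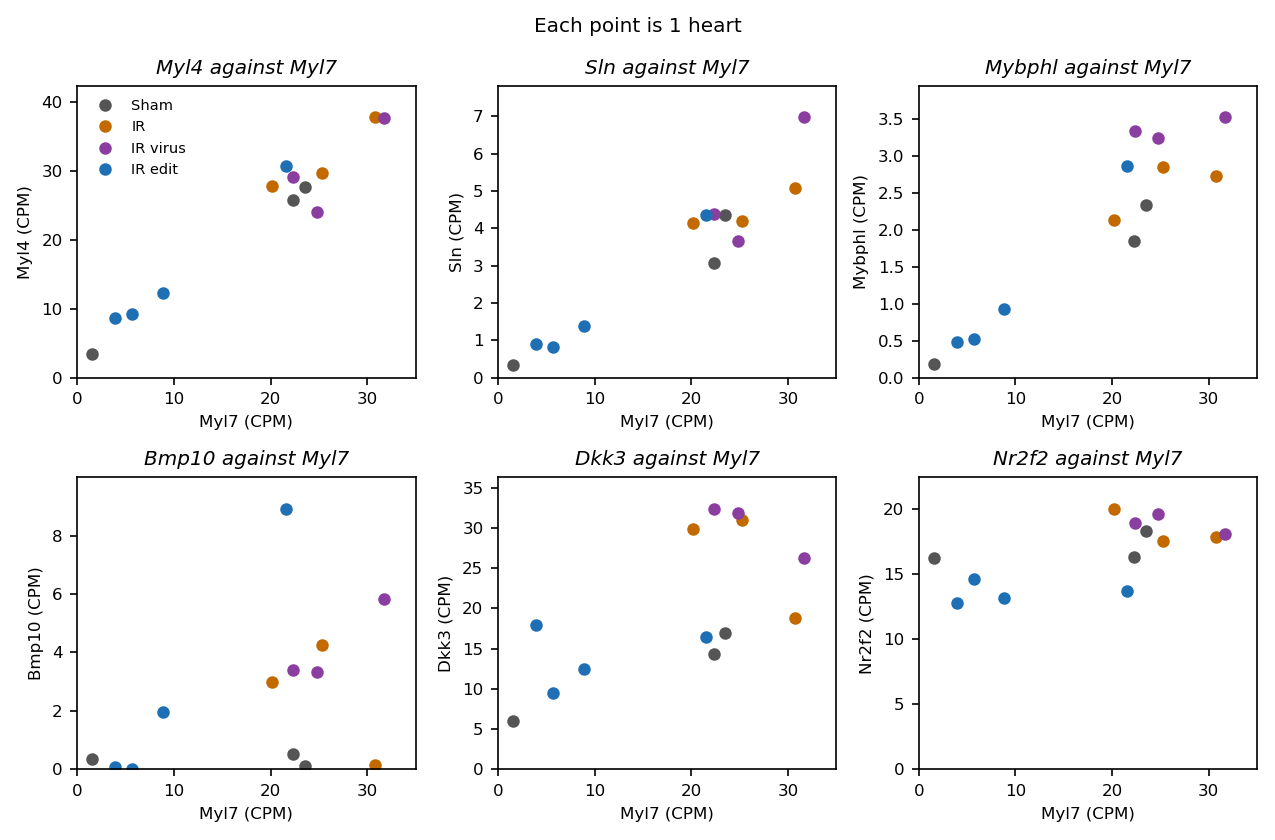
Levels of Myl4, Sln, Mybphl, Bmp10, Dkk3 and Nr2f2 (vertical axes, CPM) against Myl7 (horizontal axis, CPM), 1 point per heart coloured by group. Myl4, Sln and Mybphl climb with Myl7 from the 4 hearts at 1.56 to 8.87 CPM to the 9 hearts at 20.2 to 31.7 CPM, whereas the 4 IR edit hearts lie lowest for Nr2f2 wherever they lie on Myl7.

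Other genes listed as atrial had members in both directions. Of 11 tested, 2 rose and 1 fell in IR edit against Sham, beside 8.01% of all genes that passed, with a median of 0.01. Nppa, the atrial natriuretic peptide, which ventricular muscle also makes under stress, rose by 3.38 ± 0.57 (SE, adjusted p = 0.00384). It was at 13.2 to 26.5 CPM in Sham and at 98.9, 304, 55.9 and 422 CPM in IR edit, and its r with Myl7 was 0.277. The injured hearts without editing also lay above Sham for Nppa, at 74.4 to 167 CPM in IR and 146 to 154 CPM in IR virus. Pam, an enzyme that amidates peptides and the main membrane protein of atrial granules, rose by 0.48 ± 0.13 (adjusted p = 0.0405). Kcnj3, a subunit of the acetylcholine-activated potassium channel, fell by 0.64 (-0.64 ± 0.17, adjusted p = 0.0297). The injured hearts without editing also differed from Sham in both genes. Pam was at 971 to 979 CPM in IR and 925 to 966 in IR virus, beside 710 to 773 in Sham. Kcnj3 was at 101 to 121 CPM in IR and 101 to 115 in IR virus, beside 138 to 155 in Sham. Between IR edit and IR virus 1 of the 11 passed, beside 2.02% of all genes. It was Kcna5, a potassium channel named after its value was seen, at 1.14 ± 0.20 (adjusted p = 0.00960). Kcna5 was at 19.0, 20.6, 21.3 and 24.5 CPM in IR edit and at 7.83 to 11.2 CPM in IR virus, so the IR edit hearts low in Myl7 were not low in it.

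Among 9 tested ventricular genes, 1 rose and 2 fell in IR edit against Sham, beside 8.01% of all genes that passed. Myh7, the slow myosin heavy chain, rose by 2.82 ± 0.47 (SE, adjusted p = 0.00329), and the potassium channels Kcnd2 and Kcnj2 fell by 0.80 (-0.80 ± 0.16, adjusted p = 0.00902) and 0.61 (-0.61 ± 0.15, adjusted p = 0.0250). Without editing, Myh7 was at 319 to 691 CPM in IR and 650 to 829 in IR virus, beside 144 to 202 in Sham. Kcnd2 was at 29.9 to 30.2 CPM in IR and 27.8 to 29.6 in IR virus, beside 41.7 to 45.8 in Sham. For Kcnj2 both groups overlapped with Sham. Myl2 and Myl3 had log2 fold changes of -0.16 ± 0.12 (adjusted p = 0.430) and -0.09 ± 0.076 (adjusted p = 0.523). Between IR edit and IR virus none of the 9 ventricular genes passed (edgeR, 2 at an unadjusted p under 0.05), and Myl2 and Myl3 were at -0.02 ± 0.12 and -0.10 ± 0.076. Of 9 tested myosin light chains outside the members, Myl12a, a light chain of smooth and non-muscle myosin, passed in IR edit against Sham (0.52 ± 0.11, adjusted p = 0.0133). Of 4 tested SERCA pumps and micropeptides outside the members, Atp2a2, the cardiac pump that sarcolipin binds, fell by 0.49 (-0.49 ± 0.11, adjusted p = 0.0201), and Pln was at -0.41 ± 0.13 (adjusted p = 0.0556).

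Nodal and conduction cells lie in and beside the atria, and 7 of their markers were tested. Against Sham 4 rose in IR edit (Hcn4, Smoc2 and Cacna1g among them), beside 8.01% of all genes that passed. Against IR virus 2 rose (Hcn4 among them), beside 2.02% of all genes that passed. Hcn4, a pacemaker channel, rose by 0.97 ± 0.17 against Sham (SE, adjusted p = 0.00490) and by 0.79 ± 0.17 against IR virus (adjusted p = 0.0266). Tbx3, a transcription factor of nodal cells, was at 10.7 to 15.3 CPM in IR edit and 14.2 to 15.2 CPM in Sham, and Isl1 was at or near 0 reads. The part of nodal tissue in the levels of the members was not tested. Of the other cell types a heart sample could hold, endocardial markers had 0 of 6 and adipocyte markers 0 of 3 called in IR edit against Sham (edgeR, 1 and 0 at an unadjusted p under 0.05). Epicardial and mesothelial markers had 1 of 3 called, Wt1 (0.60 ± 0.17, SE, adjusted p = 0.0419). Skeletal muscle markers had 1 of 6 called, Acta1 (3.20 ± 0.55, adjusted p = 0.00469), which stressed heart muscle also makes, and the skeletal myosins Myh1, Myh2 and Myh4 had 0 to 4 reads. Per kilobase of exon, Acta1 was at 28.5 to 79.8 CPM in Sham, 181 to 197 in IR, 206 to 271 in IR virus and 103 to 688 in IR edit.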

How the data were processed

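RNA of 13 mouse hearts was sequenced as poly(A) libraries. The authors deposited unnormalised counts of reads for each symbol, library by library. The submitters' processing notes name featureCounts 1.6.2, HISAT2 2.1.0, Trimmomatic 0.39, FastQC 0.11.8 and build mm10. Neither the annotation nor the strand setting is given in the sources used here. Groups came from the sample titles. No 2 of the 13 libraries held identical counts.

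Counts were scaled with TMM, filtered with filterByExpr (15690 genes left) and tested with edgeR 4.0.16 in R 4.3.3, with 1 mean per group over all libraries (9 residual and 6.08 prior degrees of freedom, common biological coefficient of variation 0.116). SE was derived from the size of the log2 fold change and the root of its F statistic. Positions come from GENCODE M21 (93.3% of symbols matched). Log2 CPM for correlations used a prior count of 2. Exact tests used scipy 1.17.1. Floors cover counting error only.

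All 9 members were named in every comparison. From each other list came up to 3 genes with the smallest p in IR edit against Sham, plus Nppa, Myl2, Myl3, genes at or near 0 and the 5 genes most like Myl7, before and after subtracting group means. Some genes of these lists stand in the counts only and are not reported here by name. Tbx3, Kcna5 and Cacna1g were named after their values were seen. The members and lists were chosen with earlier results of these data known.

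On simulated data, 2-fold and 4-fold changes were recovered for 71% and 88% of planted genes in IR edit against Sham (15510 genes tested, 4.22% false calls), and for 77% and 94% in IR edit against IR virus (15506 genes, 6.04% false calls). The planted genes were drawn at random from those that passed the filter. These rates do not hold for genes that vary between hearts as Myl7, Myl4, Sln and Bmp10 do. The alternatives were the size factors and the Wald test of DESeq2 1.42.0, leaving out the filter or setting it at 1 CPM in 3 libraries, robust dispersions, the replicate number as a block, Myl7 as a covariate, a fit of only the groups compared, other light-chain ratios and leaving out each heart.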

Additional observations from a re-analysis of the deposited data

Results flagged for a closer look

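In the IR edit group, replicate 2 stood far from the other 3 hearts in 2 of the 9 members. Its Myl4 level was 30.7 CPM, where the others lay between 8.66 and 12.3 CPM, and the gap took up 0.836 of the group's range. Its Sln level was 4.35 CPM, where the others lay between 0.828 and 1.37 CPM, with a gap of 0.845 of the range. Both gaps were above Dixon's 95% critical value for 4 samples, which chance passes in about 1 in 20 groups for 1 gene. All 9 members were screened, on CPM and not on log2 CPM. Myl4 and Sln were low in the same hearts, so the 2 flags are not separate observations. Replicate 2 was also highest for Myl7, with a gap of 0.720, and for Bmp10, with 0.780, both under that value. Replicate 2 lay within the IR hearts or close to them for the light chains, and with the other IR edit hearts for Nr2f2.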

How the results depend on the processing

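Over the alternatives, of the counts of members called and the Myl7 to Myl2 ratios, 101 kept their direction and side of the threshold (counts, within 1.5 times), 9 gained calls, 18 lost calls and 10 turned. Of the values for single genes and correlations, 677 kept theirs, 30 gained a call, 21 lost one and 28 turned. Without a filter on low counts, 5 members passed in IR against Sham, 6 in IR virus against Sham, 5 in IR edit against Sham, 6 in IR edit against IR virus and 6 in IR edit against IR, beside 3.65%, 5.32%, 13.4%, 6.34% and 6.35% of the 15690 genes that the filter keeps. That fit had infinite prior degrees of freedom (6.08 with the filter), so a gene's own spread between hearts did not enter its test. For the other alternatives, the replicate block included, the share of all genes called is not given here. Their counts of members therefore cannot be set beside it. In IR virus against Sham, 1 passed in the fit of only the 2 groups (Bmp10) and 1 by DESeq2's Wald test (Dkk3). In IR edit against Sham, 0 passed in the fit of only the 2 groups, and between 0 and 2 with a heart left out (0 without Sham replicate 1 or IR edit replicate 1, 2 or 4). In IR edit against IR virus, 1 passed with the 1 CPM filter and 1 with a robust dispersion, and 1 to 2 with a heart left out. In IR edit against IR the count was 0 to 1 with a heart left out. With Myl7 as a covariate 0 passed in both of the last comparisons, and the cause was not tested.

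The titles share replicate numbers. Same-numbered hearts deviated together in part of the pairs only (correlations -0.308 to 0.559, median 0.0568, 9 of 18 pairs over 0.1, beside 12 of 45 differently numbered pairs), so the numbers were not taken as pairing. With the replicate block, 1 member passed in IR virus against Sham (Dkk3), 0 in IR edit against Sham (Nr2f2, adjusted p = 0.0959), 0 in IR edit against IR (Nr2f2, 0.0697) and 2 in IR edit against IR virus.

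Directions that turned were the following log2 fold changes. In IR against Sham, Sbk3 was -0.059 with the Myl7 covariate, and with hearts left out Nr2f1 ran from -0.00029 to 0.40 and Sbk3 from -0.014 to 0.38. In IR virus against Sham, Nr2f1 ran from -0.11 to 0.28. In IR edit against Sham, Myl4 was 0.15 and Sln 0.12 with the covariate, and with hearts left out Myl4 ran from -0.92 to 0.045, Sln from -1.33 to 0.097 and Dkk3 from -0.15 to 0.46. With the covariate, Myl4 was 0.13 and Bmp10 0.93 against IR virus, and Myl4 0.019 and Sln 0.0055 against IR, where Bmp10 ran from -1.71 to 0.81 with hearts left out. The log2 ratio of IR edit against Sham was 0.059 for Myl4 to Myl3, 0.084 for Myl7 to Tnni3 and -1.32 to 0.65 with hearts left out. That of IR virus against IR was -0.16 for Myl4 to Myl3 and -0.10 to 0.18 with hearts left out. Of the correlations with Myl7 in the higher set, Myl4 turned to -0.26 and Sln to -0.072 without the 2 farthest hearts. With group means subtracted, Nr2f1 turned to -0.076, Nr2f2 to -0.58, Dkk3 to -0.75 and Sbk2 to -0.026. With hearts left out, Bmp10 ran from -0.50 to 0.19, Nr2f2 from -0.27 to 0.38, Dkk3 from -0.093 to 0.22 and Sbk2 from -0.28 to 0.18. Depth limits Bmp10 (0 to 199 reads), Sln (7 to 166) and Nr2f1 (40 to 70).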
